A study of Mus musculus with 6 samples.

Results

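The genes described here encode the ligands, receptors and inhibitors of the TGF-beta and activin pathways: Tgfb1, Tgfb2, Tgfb3, Tgfbr1, Tgfbr2, Tgfbr3, Inhba, Inhbb, Fst and Smad7. They were listed by name and not by a cutoff on measured values, though with earlier results of these data known. All 10 were found by Ensembl identifier among the 52550 genes listed and among the 22452 genes tested, those with a mean of at least 1 TPM (a level corrected for transcript length and library size). The RNA came from GFP-positive cells sorted from livers of CD-1 mouse embryos carrying Sox9-GFP, a transgene in which GFP reports activity of the gene for SOX9, a transcription factor of early bile duct cells. There were 3 libraries (A, B and C) at each of 2 stages, given as embryonic day 16 and day 18 by the labels and as E16.5 and E18.5 in the study's methods, and no treatment or other genotype was compared. Each library was a pool of livers, depleted of blood lineage cells by magnetic sorting before the GFP sort, so that p-values measure the spread between these pools only. The comparison of the stages asks how the RNA levels of the pathway differed between the GFP-positive cells sorted at the earlier and the later stage. Markers of other cell types were also present in these libraries, as given below.

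TGF-beta ligands are secreted in a latent form, held in the matrix or on the cell surface by binding proteins, and are released by integrins or by thrombospondin. The released ligand binds the type II receptor, which recruits and phosphorylates the type I receptor, and this in turn phosphorylates SMAD2 and SMAD3, which enter the nucleus with SMAD4. Activins, dimers of inhibin beta subunits, use other receptors to reach the same SMADs and are bound by follistatin, whereas SMAD7 is induced by the pathway and inhibits it. In the embryonic liver, TGF-beta signalling near the portal vein is known to promote differentiation of hepatoblasts, the shared precursors of hepatocytes and bile duct cells, towards the biliary fate.

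Promoter sequences are shown for 3 ligand genes whose levels changed between the stages, because their base composition and core motifs differ. Of the 10 genes, 6 were in the RefSeq promoter table (GRCm38.p6), and Tgfb3 was not among them. Each sequence is the 250 bases before the RefSeq gene start, 5′ to 3′ on the gene's strand. Capitals mark a TATA motif (TATAAA), an E-box (CACGTG) or a GC box (GGGCGG, or CCGCCC when read on the other strand), all searched on both strands. The windows are chr7:25686752-25687001 on the plus strand for Tgfb1, chr1:186705990-186706239 on the minus strand for Tgfb2 and chr1:119422249-119422498 on the minus strand for Inhbb.
Tgfb1: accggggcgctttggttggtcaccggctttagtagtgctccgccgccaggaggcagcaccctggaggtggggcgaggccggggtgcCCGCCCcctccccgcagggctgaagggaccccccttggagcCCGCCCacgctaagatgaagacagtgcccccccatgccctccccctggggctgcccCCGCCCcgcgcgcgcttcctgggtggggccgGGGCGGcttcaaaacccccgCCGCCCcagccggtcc
Tgfb2: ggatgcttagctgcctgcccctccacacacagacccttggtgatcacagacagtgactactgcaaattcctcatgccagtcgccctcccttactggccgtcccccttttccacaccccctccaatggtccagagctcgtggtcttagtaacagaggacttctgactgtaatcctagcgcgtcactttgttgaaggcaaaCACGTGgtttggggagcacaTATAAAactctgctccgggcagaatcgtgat
Inhbb: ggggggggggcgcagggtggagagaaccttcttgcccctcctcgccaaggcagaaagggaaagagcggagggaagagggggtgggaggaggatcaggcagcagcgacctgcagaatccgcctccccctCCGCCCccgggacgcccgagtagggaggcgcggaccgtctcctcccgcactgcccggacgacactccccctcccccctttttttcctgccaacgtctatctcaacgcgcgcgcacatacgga

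The Tgfb1 window had a GC content of 75.2%, with 5 GC boxes and no match to the TATA motif or the E-box. The Tgfb2 window had a GC content of 53.6%, with a TATA motif 31 bases before the gene start, 1 E-box and no GC box. The Inhbb window had a GC content of 68.0% and 1 GC box. Among 32851 promoter windows of the same length, 12.4% held the TATA motif, 6.02% the E-box and 32.7% the GC box, and the median GC content was 52.4%. These matches describe the letters in the windows only.

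The libraries held between 13093937 reads (E18.5 C) and 26206374 reads (E16.5 A), as recovered from the TPM steps. The median log2 fold change of all genes tested (E18.5 minus E16.5, on the log2(TPM + 1) scale) was 0.42, so most calls in TPM were upward. After rescaling each library by the median ratio of its genes to their geometric mean (median-of-ratios scaling, called rescaling from this point), the median was 0.011, and changes of the 10 genes are therefore given on both scales. Cholangiocyte markers (Sox9, Krt19, Epcam and others) were detected at both stages, and their summed level went from 1046 to 3077 TPM in the E16.5 libraries to 8888 to 15074 TPM in the E18.5 libraries. Spp1 alone carried most of the E18.5 sum, and without it (a choice made after its values were seen) the sums were 576 to 1310 TPM and 2259 to 2954 TPM. Hepatoblast markers (Alb, Afp and others) summed to 180041 to 229708 TPM in the E16.5 libraries, 18.0% to 23.0% of all TPM. In the E18.5 libraries they summed to 41873.5 to 103282 TPM, 4.19% to 10.3% of all TPM. Markers of both were thus present at each stage, in different proportions, and the hepatoblast sum was above the cholangiocyte sum in every library. Alb alone carried most of the hepatoblast sum, with 117854 to 148077 TPM in the E16.5 libraries and 30024 to 70152 TPM in the E18.5 libraries. The sums depend on the genes listed and do not give the proportions of the cell types.

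The TGF-beta ligands exchanged places between the stages: Tgfb1 fell, Tgfb2 and Tgfb3 rose. Among the other genes, Smad7, Tgfbr1 and Inhbb rose, while Tgfbr2, Tgfbr3, Inhba and Fst did not pass the threshold. A gene was called at a Benjamini-Hochberg adjusted p under 0.05 in limma over all genes tested. By that rule 6 of the 10 genes were called, against 31.2% of all genes. There were 5 that rose, against 26.0% of all genes, and 1 that fell, against 5.22%. All 10 are protein-coding genes, whereas the shares of all genes, here and below, include noncoding genes and genes of low level. With protein-coding genes only, 7480 of 14365 genes were called (52.1%) and 6503 rose, with 7 of the 10 called and 6 risen. With a mean of at least 5 TPM, 43.0% of the genes tested were called, and 5 of the 9 then tested. For 7 of the 10 genes every library of one stage lay above every library of the other, compared with 53.3% of all genes. The median log2 fold change of the 10 genes was 0.65. After rescaling it was 0.20, and 3 genes rose (Tgfb3, Inhbb and Smad7) and 1 fell (Tgfb1), against 6.44% and 10.5% of all genes. The plot of TPM in each library shows these levels before any test.

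**Figure D1:**
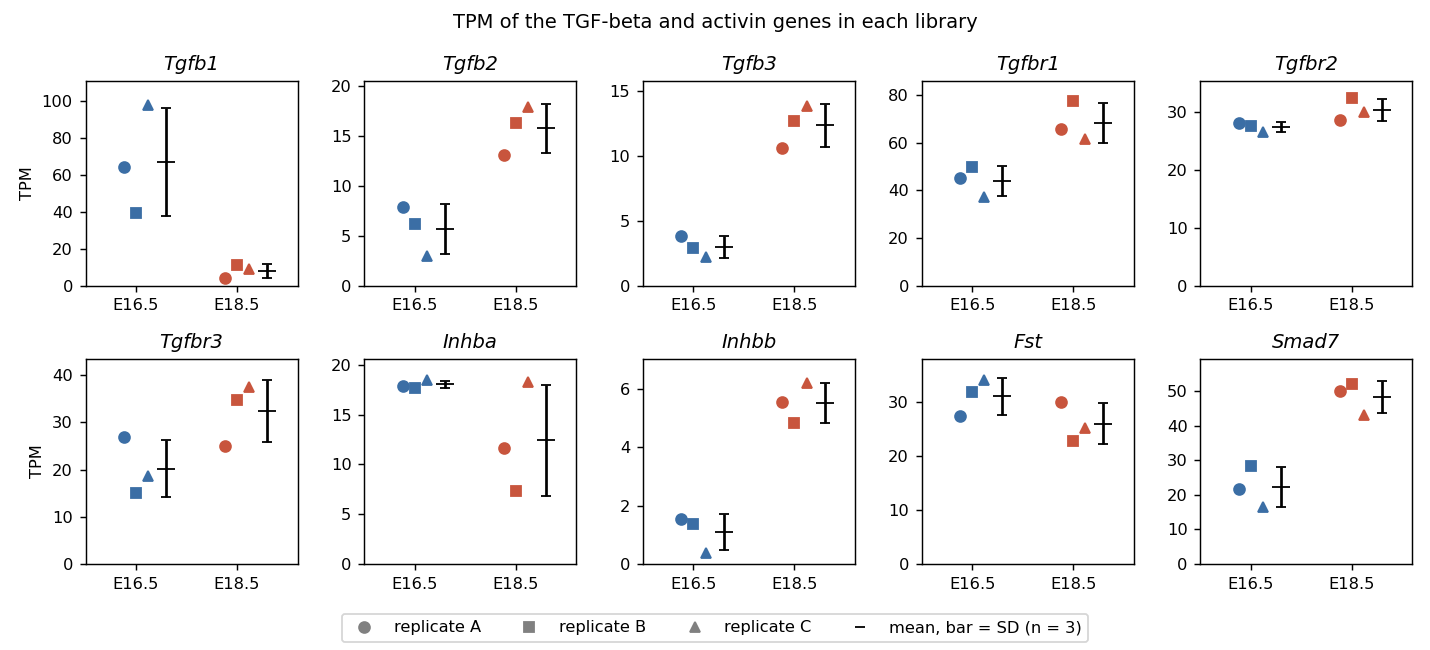
TPM of each gene (vertical axis, from 0) in the E16.5 and E18.5 libraries (horizontal axis), with a symbol per replicate and the mean ± SD (n = 3) beside the points. Tgfb1 falls from 67.2 to 8.13 TPM on average, and Tgfb2, Tgfb3, Inhbb, Smad7, Tgfbr1 and Tgfbr2 have all E18.5 points above all E16.5 points.

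Tgfb1 (ENSMUSG00000002603.15, GRCm38 chr7:25687002-25705077, plus strand) encodes the ligand TGF-beta 1. Its level was 64.1, 39.5 and 98.0 TPM in E16.5 libraries A, B and C and 3.97, 11.1 and 9.33 TPM in the E18.5 libraries. All E16.5 libraries were thus above all E18.5 libraries, with library C the highest and library B the lowest of the earlier group. The mean fell from 67.2 ± 29.4 TPM to 8.13 ± 3.71 TPM (SD, n = 3), a level 8.26-fold lower. The log2 fold change was -2.91 (SE 0.42, 95% interval -3.90 to -1.91, limma adjusted p = 0.00976) and -3.34 after rescaling (limma adjusted p = 0.0125). Among protein-coding genes, Tgfb1 moved from percentile 91.9 of the level down to percentile 51.9. It was called under all 15 alternative settings, with log2 fold changes between -3.34 and -2.52.

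Tgfb2 (ENSMUSG00000039239.14, GRCm38 chr1:186622792-186705989, minus strand) encodes the ligand TGF-beta 2. It was at 7.89, 6.20 and 3.01 TPM in the E16.5 libraries and at 13.1, 16.3 and 17.9 TPM in the E18.5 libraries, without overlap of the stages. The mean rose 2.77-fold, from 5.70 ± 2.48 to 15.8 ± 2.45 TPM (SD, n = 3). The log2 fold change was 1.39 (SE 0.31, 95% interval 0.66 to 2.13, limma adjusted p = 0.0205). After rescaling it was 0.98 and the limma adjusted p was 0.0549, so that the call was lost. The call was also lost without E18.5 replicate A (limma adjusted p = 0.0565) or without E18.5 replicate B (limma adjusted p = 0.0601). An antisense gene, Gm29491, overlaps 2.14% of the exonic bases of Tgfb2.

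Tgfb3 (ENSMUSG00000021253.7, GRCm38 chr12:86056745-86079041, minus strand) encodes the ligand TGF-beta 3. Its levels were 3.86, 2.88 and 2.19 TPM in the E16.5 libraries and 10.6, 12.7 and 13.8 TPM in the E18.5 libraries, again without overlap. The mean rose 4.15-fold, from 2.98 ± 0.841 to 12.4 ± 1.64 TPM (SD, n = 3). This gave a log2 fold change of 1.76 (SE 0.23, 95% interval 1.22 to 2.30, limma adjusted p = 0.00852) and 1.37 after rescaling (limma adjusted p = 0.0127). Like Tgfb1, Tgfb3 was called under all 15 alternative settings. The genes Gm37804 and Gm48008 on the opposite strand overlap 4.82% and 7.60% of its exonic bases.

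The make-up of the ligand transcripts within a library does not depend on scaling between libraries. Tgfb1 provided 84.5%, 81.3% and 94.97% of the summed TPM of the 3 ligand genes in the E16.5 libraries, and 14.3%, 27.7% and 22.7% in the E18.5 libraries. Its mean share went from 86.9% ± 7.14 to 21.6% ± 6.74 (SD, n = 3), a difference of -65.3 percentage points that exceeded the spread between libraries. An exact permutation test (two-sided, 3 against 3) gave p = 0.1, the smallest that the design allows, so no share could reach 0.05 (adjusted over the 5 shares tested, p = 0.125). The share of Tgfb2 went from 8.69% ± 5.14 to 43.9% ± 3.36 (SD, n = 3, exact permutation test, two-sided, p = 0.1). That of Tgfb3 was 5.09%, 5.93% and 2.12% at the earlier stage and 38.2%, 31.6% and 33.6% at the later one. At E18.5, Tgfb2 provided the largest share in each of the 3 libraries. The summed level of the ligand genes was 75.9, 48.6 and 103 TPM in the E16.5 libraries and 27.7, 40.1 and 41.1 TPM in the E18.5 libraries, so the rise of Tgfb2 and Tgfb3 was smaller in TPM than the fall of Tgfb1. The stacked plot of ligand shares shows the exchange library by library.

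**Figure D2:**
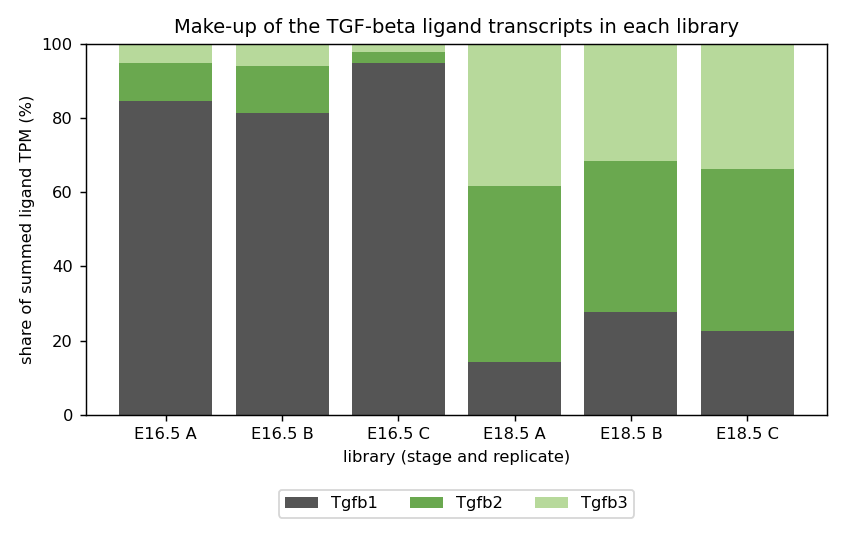
Share of Tgfb1, Tgfb2 and Tgfb3 (percent of their summed TPM, vertical axis) in each of the 6 libraries (horizontal axis). Tgfb1 fills between 81.3% and 94.97% of the E16.5 bars and between 14.3% and 27.7% of the E18.5 bars.

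Tgfbr1 (ENSMUSG00000007613.15, GRCm38 chr4:47353222-47414931, plus strand) encodes the type I receptor, the kinase that phosphorylates SMAD2 and SMAD3. It was at 45.0, 49.6 and 37.1 TPM in the E16.5 libraries and at 65.6, 77.4 and 61.6 TPM in the E18.5 libraries, and the stages did not overlap. The mean rose 1.55-fold, from 43.9 ± 6.34 to 68.2 ± 8.23 TPM (SD, n = 3), with a log2 fold change of 0.63 (SE 0.15, 95% interval 0.27 to 0.98, limma adjusted p = 0.0243). After rescaling the log2 fold change was 0.17 (limma adjusted p = 0.243), and after quantile normalization it was 0.34 (limma adjusted p = 0.0779). The call was also lost without E16.5 replicate A or C and without E18.5 replicate A or B, with limma adjusted p between 0.0511 and 0.0719.

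Tgfbr2 (ENSMUSG00000032440.13, GRCm38 chr9:116084293-116175360, minus strand) encodes the type II receptor, which binds the ligand first. It had the narrowest spread of the receptors, with 28.2, 27.5 and 26.6 TPM in the E16.5 libraries and 28.6, 32.5 and 30.0 TPM in the E18.5 libraries. The stages did not overlap, but E16.5 library A and E18.5 library A were close. In limma the log2 fold change was 0.14 (SE 0.12, 95% interval -0.13 to 0.41, limma adjusted p = 0.367). Its direction depended on the scaling, with -0.31 after rescaling (95% interval -0.54 to -0.085, limma adjusted p = 0.0688) and -0.21 after quantile normalization. No setting called it. Within libraries, Tgfbr2 made up 38.5%, 35.7% and 41.8% of the summed TPM of Tgfbr1 and Tgfbr2 in the E16.5 libraries and 30.4%, 29.5% and 32.7% in the E18.5 libraries. The mean of this share went from 38.7% ± 3.03 to 30.9% ± 1.65 (SD, n = 3), a difference of -7.78 percentage points without overlap (exact permutation test, two-sided, p = 0.1, the smallest possible).

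Tgfbr3 (ENSMUSG00000029287.14, GRCm38 chr5:107106570-107289629, minus strand) encodes betaglycan, a coreceptor that presents TGF-beta 2 in particular to the signalling receptors. Its levels were 26.9, 15.1 and 18.54 TPM in the E16.5 libraries and 24.99, 34.8 and 37.4 TPM in the E18.5 libraries. E16.5 library A was above E18.5 library A, so the stages overlapped. The log2 fold change was 0.67 (SE 0.24, 95% interval 0.098 to 1.25, limma adjusted p = 0.0715), and 0.23 after rescaling (limma adjusted p = 0.539). Without E16.5 replicate A the log2 fold change was 0.89 and was called (limma adjusted p = 0.0440), as it was with protein-coding genes only (0.77, limma adjusted p = 0.0319). The gene Gm43422 on the same strand overlaps 4.54% of its exonic bases.

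**Figure D3:**
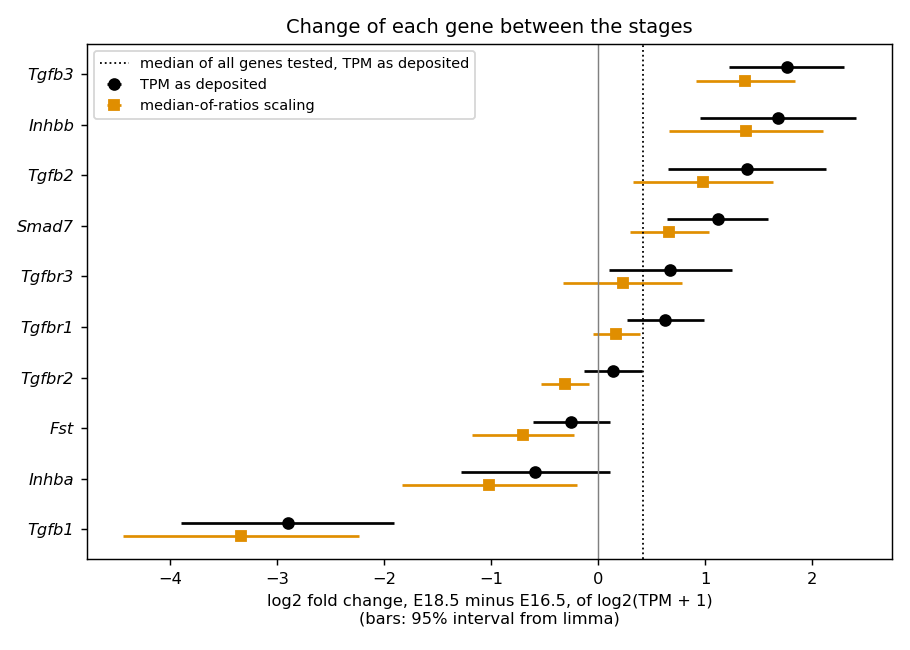
Log2 fold change (E18.5 minus E16.5, of log2(TPM + 1), horizontal axis) of each gene (vertical axis) with its 95% limma interval, for TPM as deposited (circles) and after rescaling (squares). The dotted line marks the median of all genes tested in TPM, 0.42, and only Tgfbr2 lies on opposite sides of 0 on these scales.

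Inhba (ENSMUSG00000041324.14, GRCm38 chr13:16011851-16031621, plus strand) encodes the inhibin beta A subunit, which forms activin A. Its E16.5 levels lay close together, at 17.9, 17.7 and 18.48 TPM, whereas the E18.5 levels were 11.7, 7.29 and 18.3 TPM. E18.5 library C stood within the E16.5 range and E18.5 libraries A and B below it. Its log2 fold change was -0.59 (SE 0.29, 95% interval -1.28 to 0.11, limma adjusted p = 0.157). After rescaling it was -1.02 (95% interval -1.84 to -0.20, limma adjusted p = 0.0873). Without E18.5 replicate C it was -0.89 and was called (limma adjusted p = 0.0383), and without E18.5 replicate B it was -0.28 (limma adjusted p = 0.358), so that single libraries decided its size and its call.

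Inhbb (ENSMUSG00000037035.5, GRCm38 chr1:119415465-119422248, minus strand) encodes the inhibin beta B subunit, which forms activin B. It had the lowest mean of the 10 genes at both stages, although Tgfb1 was below it in E18.5 library A, with 1.53, 1.39 and 0.383 TPM in the E16.5 libraries and 5.57, 4.83 and 6.19 TPM in the E18.5 libraries. The value of E16.5 library C rested on 13 recovered reads, with an exact (Clopper-Pearson) 95% binomial interval of 0.204 to 0.655 TPM that covers counting error only. The mean rose 5.02-fold, from 1.10 ± 0.626 to 5.53 ± 0.683 TPM (SD, n = 3), with no overlap. The log2 fold change was 1.68 (SE 0.31, 95% interval 0.95 to 2.41, limma adjusted p = 0.0139) and 1.38 after rescaling (limma adjusted p = 0.0301). Without E18.5 replicate A the limma adjusted p was 0.0532. Inhba, at a mean of 12.4 ± 5.57 TPM, was above Inhbb in each E18.5 library.

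Fst (ENSMUSG00000021765.8, GRCm38 chr13:114452290-114458951, minus strand) encodes follistatin, which binds activins and blocks their access to receptors. It was at 27.3, 31.8 and 34.0 TPM in the E16.5 libraries and at 30.0, 22.7 and 25.1 TPM in the E18.5 libraries, with overlap of the stages. Its log2 fold change was -0.25 (SE 0.15, 95% interval -0.61 to 0.11, limma adjusted p = 0.230). After rescaling it was -0.70 (95% interval -1.18 to -0.22, limma adjusted p = 0.0581), and no setting called it. Fst provided a share of the summed TPM of Fst, Inhba and Inhbb that went from 61.7% ± 3.06 to 59.8% ± 8.02 (SD, n = 3). This share differed by less than the spread between libraries (-1.92 percentage points, exact permutation test, two-sided, p = 0.9). The antisense gene Gm47040 overlaps 2.51% of the exonic bases of Fst.

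Smad7 (ENSMUSG00000025880.11, GRCm38 chr18:75367529-75395935, plus strand) encodes the inhibitory SMAD that is itself a transcriptional target of the pathway. Its levels were 21.8, 28.3 and 16.6 TPM in the E16.5 libraries and 50.1, 52.1 and 43.2 TPM in the E18.5 libraries, so the lowest E18.5 library was above the highest E16.5 library. The mean rose 2.18-fold, from 22.2 ± 5.86 to 48.5 ± 4.63 TPM (SD, n = 3). This gave a log2 fold change of 1.12 (SE 0.20, 95% interval 0.65 to 1.59, limma adjusted p = 0.0133) and 0.66 after rescaling (limma adjusted p = 0.0346). Without E18.5 replicate A the limma adjusted p was 0.0524.

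By mean TPM, the order at E16.5 was Tgfb1, Tgfbr1, Fst, Tgfbr2, Smad7, Tgfbr3, Inhba, Tgfb2, Tgfb3 and Inhbb. In that order, neighbours were separated without overlap of their libraries only between Tgfbr1 and Fst, between Inhba and Tgfb2 and between Tgfb3 and Inhbb. At E18.5 the order was Tgfbr1, Smad7, Tgfbr3, Tgfbr2, Fst, Tgfb2, Inhba, Tgfb3, Tgfb1 and Inhbb. There the libraries were separated between Tgfbr1 and Smad7, between Smad7 and Tgfbr3 and between Fst and Tgfb2. Tgfb1 thus moved from the first place to the ninth, and the receptor genes were above all 3 ligand genes at E18.5 on this length-corrected scale.

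The genes of latent TGF-beta storage and release were split in direction, with 4 of 10 that rose and 3 that fell (median log2 fold change 0.53 and 0.15 after rescaling, against 0.42 and 0.011 over all genes tested). Over all genes 26.0% rose and 5.22% fell. The 3 that fell were Thbs1, an activator of latent TGF-beta (1414 to 102 TPM, log2 fold change -3.82, limma adjusted p = 0.0081), Lrrc32, which tethers latent TGF-beta at the cell surface (47.2 to 7.36 TPM, -2.57, limma adjusted p = 0.0106), and Ltbp1, a matrix latency protein (58.8 to 20.5 TPM, -1.45, limma adjusted p = 0.0156). Those that rose were the latency proteins Ltbp3 (15.7 to 55.0 TPM) and Ltbp4 (12.3 to 38.3 TPM), and the subunits of the activating integrin Itgb8 (4.72 to 33.4 TPM) and Itgav (45.5 to 73.8 TPM). After rescaling, Ltbp3 and Itgb8 were called as higher and the same 3 genes as lower, against 6.44% and 10.5% of all genes.

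The libraries with more Tgfb1 were also those with more RNA of megakaryocytes, the platelet-forming cells, which are known to store TGF-beta 1. All 12 megakaryocyte markers fell, against 5.22% of all genes (median log2 fold change -4.29). Their summed level was 6129, 3535 and 10164 TPM in E16.5 libraries A, B and C and 103, 811 and 240 TPM in the E18.5 libraries. The order of the libraries by Tgfb1, C above A above B in the earlier group and B above C above A in the later group, was shared at both stages by 12 of 12 megakaryocyte markers. Among the latency genes it was shared by Ltbp1, Lrrc32 and Thbs1, and it was shared by none of the 12 cholangiocyte markers. Of the other marker lists, only 1 of 9 erythroid markers shared it at both stages. Counting the E18.5 order only, it was shared by 6 of 8 mesothelial, 7 of 12 leukocyte, 5 of 9 erythroid and 5 of 12 endothelial markers. Counting the E16.5 order only, it was shared by 5 of 12 hepatoblast markers. The share of all genes with this order was not computed, and markers of 1 cell type are not separate observations. Tgfb1 amounted to 1.05%, 1.12% and 0.965% of the summed megakaryocyte markers in the E16.5 libraries and to 3.84%, 1.37% and 3.89% in the E18.5 libraries. It thus fell less steeply than their sum. By marker, the log2 fold changes of Gp1ba (-2.87) and Clec1b (-2.54) were no steeper than that of Tgfb1 (-2.91), and those of the other markers were steeper. Clec1b went from a mean of 10.6 to 0.893 TPM. On the log2(TPM + 1) scale the fall of such a low gene is understated, so its value cannot be ranked against that of Tgfb1. The part of these cells in the fall of Tgfb1 was not tested. In these bulk libraries, fewer cells of a type and less RNA per cell cannot be told apart.

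**Figure D4:**
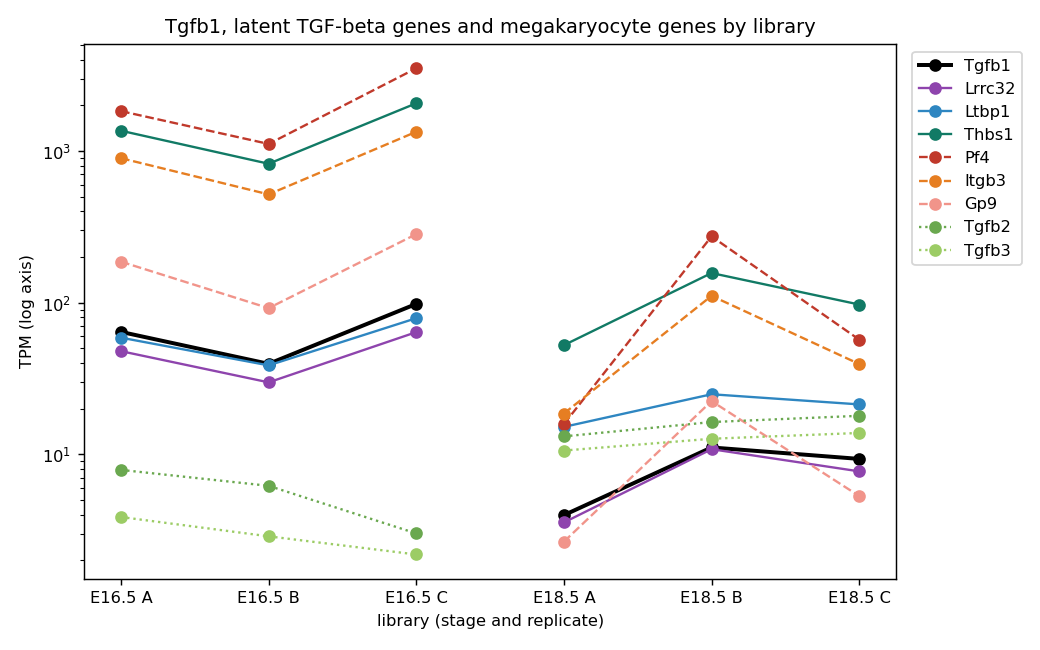
TPM (log axis) of the ligand genes, 3 latent TGF-beta genes and the megakaryocyte genes Pf4, Itgb3 and Gp9 in each library. Tgfb1, the latent TGF-beta genes and the megakaryocyte genes are highest in E16.5 library C and lowest in E18.5 library A, whereas Tgfb2 and Tgfb3 are lowest in E16.5 library C.

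Markers of other cell types were counted in the same way. Over all genes 26.0% rose and 5.22% fell, and after rescaling 6.44% rose and 10.5% fell. All 8 mesothelial markers (Msln, Wt1, Upk3b and others) rose, on both scales, with summed levels of 4.85 to 13.8 TPM in the E16.5 libraries and 50.8 to 108 TPM in the E18.5 libraries. Of the 11 mesenchymal markers tested 3 rose (1 after rescaling), near the share of all genes, with summed levels of 176 to 343 TPM and 328 to 825 TPM. Of the 12 endothelial markers 1 rose in TPM whereas 2 fell after rescaling, with sums of 154 to 242 TPM and 132 to 256 TPM. Tgfb2 amounted to 57.2% to 85.0% of the summed mesothelial markers at the earlier stage and to 15.1% to 25.9% at the later one, and Tgfb3 to 28.0% to 45.1% and 11.8% to 20.9%. Set against the summed mesenchymal markers, Tgfb2 amounted to 1.17% to 3.53% and then 2.17% to 3.998%, and Tgfb3 to 0.850% to 1.64% and then 1.68% to 3.22%, so these ratios did not fall as those to the mesothelial markers did. Of the 12 cholangiocyte markers 10 rose (5 after rescaling) and none fell. Inhbb amounted to 0.0366% to 0.0612% of their summed level at the earlier stage and to 0.0320% to 0.0697% at the later one. Spp1 carried most of that sum at E18.5. Without Spp1 the sum was 576 to 1310 TPM in the E16.5 libraries and 2259 to 2954 TPM in the E18.5 libraries. Inhbb itself was at 0.383 to 1.53 TPM and 4.83 to 6.19 TPM. Its ratio to the markers without Spp1 was thus higher in every E18.5 library than in any E16.5 library. Of the 12 leukocyte markers 5 rose in TPM, whereas after rescaling none rose and 1 fell. Of the 12 hepatoblast markers 7 fell (6 after rescaling). The 9 erythroid markers summed to 163 to 211 TPM in the E16.5 libraries and 90.8 to 420 TPM in the E18.5 libraries. No listed marker was at 0 in all libraries. The part of these cell types in the changes of Tgfb2, Tgfb3, Inhbb and Smad7 was not tested.

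Of the other activin and TGF-beta ligands, receptors and antagonists, 6 of the 13 tested rose and 1 fell, against 26.0% and 5.22% of all genes (median log2 fold change 0.62, and 0.18 after rescaling). The activin type II receptor genes Acvr2a (30.8 to 56.5 TPM) and Acvr2b (17.0 to 26.6 TPM) rose, as did Inha (18.9 to 39.5 TPM), whose product forms inhibins with the subunits encoded by Inhba and Inhbb. Bambi, a pseudoreceptor that blocks signalling, rose from 9.97 to 25.5 TPM, and Fstl3, a relative of follistatin, from 10.3 to 32.1 TPM. Fstl1 rose as well, from 30.0 to 73.1 TPM. The gene that fell was Tgfb1i1, which encodes a focal adhesion protein (27.3 to 6.41 TPM, log2 fold change -1.92, limma adjusted p = 0.0179). After rescaling Bambi and Fstl3 were still called as higher, and 2 genes, Tgfb1i1 and Inhbc, as lower, against 6.44% and 10.5% of all genes.

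Among the Smad transducers and their regulators 14 of 15 rose in TPM, against 26.0% of all genes, and none fell (median log2 fold change 0.78, and 0.33 after rescaling). Smad2 rose from 63.3 to 87.7 TPM, Smad3 from 59.9 to 91.1 TPM and Smad4 from 75.8 to 137 TPM, but after rescaling their log2 fold changes were 0.0062, 0.15 and 0.39 and none of these genes was called. After rescaling 4 of the 15 were called, all as higher, against 6.44% of all genes: Nedd4l, a ubiquitin ligase for activated SMADs, Zfyve9, which anchors SMADs at endosomes, Trim33 and Pmepa1. Pmepa1, an inhibitor that is also induced by the pathway, rose from 2.35 to 8.87 TPM (limma adjusted p = 0.0126), as Smad7 did.

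Of 16 textbook TGF-beta induced genes tested, 5 rose and 1 fell, near the 26.0% and 5.22% of all genes. Their median log2 fold change was 0.91, and 0.46 after rescaling. Those that rose were Tgfbi, a matrix protein (4.92 to 18.8 TPM), Fn1, fibronectin (2579 to 5950 TPM), the cell cycle inhibitor Cdkn1a (22.3 to 61.5 TPM), Skil (31.1 to 60.2 TPM) and Pmepa1. Thbs1, which is also in the latency list, was the gene that fell. Itgb6 and Ltbp2 are in the latency list too, and Skil and Pmepa1 are in the list of Smads and regulators. Col1a1, Col1a2, Acta2 and Tagln are also counted as mesenchymal markers, so these lists are not separate observations. Ccn2 had mean levels of 76.5 and 133 TPM (limma adjusted p = 0.0849). After rescaling 3 genes of the list were called as higher (Tgfbi, Cdkn1a and Pmepa1) and 1 as lower (Thbs1), against 6.44% and 10.5% of all genes. Fn1 (limma adjusted p = 0.0945) and Skil (limma adjusted p = 0.156) were then not called.

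In the neighbouring BMP branch 8 of 16 genes tested rose, against 26.0% of all genes, and none fell (median log2 fold change 0.81, and 0.39 after rescaling). They included Bmpr2, the type II receptor (25.1 to 60.3 TPM), the transducer Smad9 (0.449 to 6.13 TPM), and Id2 (169 to 446 TPM) and Id3 (6.24 to 17.0 TPM), transcriptional targets of BMP. The Bmp ligand genes tested were not called, and after rescaling 5 genes of the branch were called, all as higher, against 6.44% of all genes. The plot of the pathway lists sets these genes beside the 10 ligand, receptor and inhibitor genes.

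**Figure D5:**
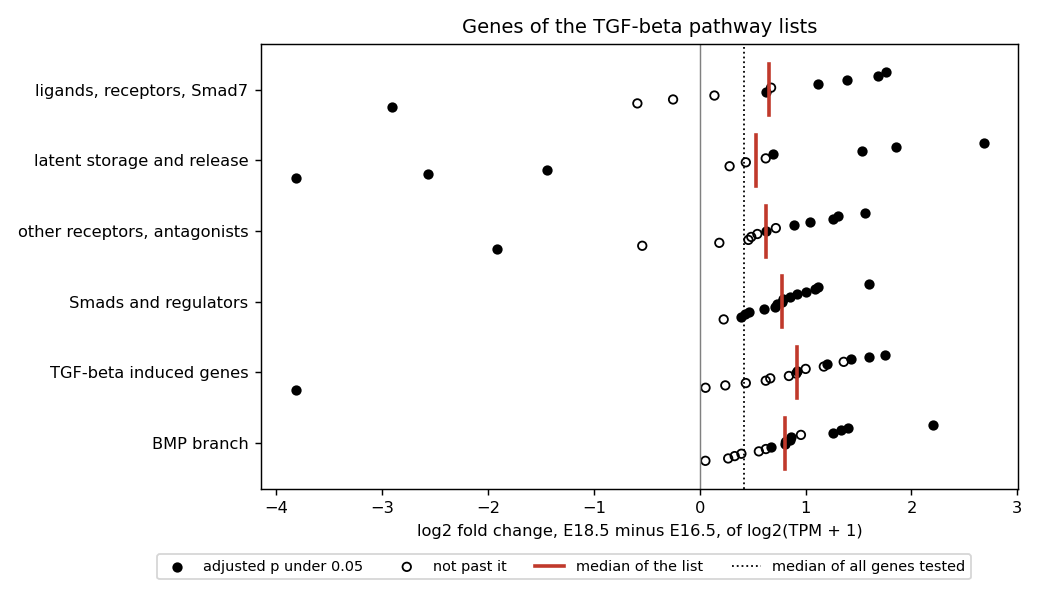
Log2 fold change (E18.5 minus E16.5, of log2(TPM + 1), horizontal axis) of each gene of the pathway lists (vertical axis), filled where the limma adjusted p is under 0.05. Red lines mark list medians between 0.53 and 0.91 and the dotted line the median of all genes tested, 0.42.

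For each of the 10 genes, the gene with the most similar pattern was sought by Pearson's r of log2(TPM + 1) over the 6 libraries, among about the same set of well-measured genes (11382 for Tgfb1). With 6 libraries in 2 stages, many genes have an r close to 1, so these names are a description only. For Tgfb1 they were Htr2a, Myl9 and Nrgn (r = 0.998). For Tgfb2 the first was Aatf (r = 0.999), for Tgfb3 Dnajb6, for Tgfbr1 Fam32a, for Tgfbr2 Ccdc71l, for Tgfbr3 Gm6685, for Inhbb Clcf1 and for Smad7 9530068E07Rik. For Inhba they were Sult1d1 (r = 0.994), Baat (r = 0.993) and Gapdh, and the first for Fst was Fas (r = 0.988), the lowest first value of the 10 genes.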

How the data were processed

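RNA of GFP-positive cells from embryonic livers was sequenced with a stranded total RNA kit (6 libraries). Per the labels and the study's methods, the authors aligned reads to GRCm38 with HISAT2 2.1.0 after FastQC 0.11.7 and trimming, and counted them with HTSeq 0.5.4p3. The strand setting is not given in the sources used here. The deposited values are TPM computed by the authors per gene, and each library sums to 1000000. Symbols, coordinates and exon lengths came from GENCODE vM21 (52403 of 52550 identifiers found).

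E18.5 was set against E16.5 on log2(TPM + 1), two-sided, by limma 3.58.1 (R 4.3.3, empirical Bayes with trend) for the 22452 genes averaging 1 TPM or more, with Benjamini-Hochberg adjustment over all of them. A fold change on this scale understates changes of low genes. Permutation tests used scipy 1.17.1.

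TPM times exon length gave whole reads for 100% of the values checked (tolerance 0.01), and voom on these reads called 5552 genes. Recovered reads were 13 (Inhbb) to 3943 (Tgfb1) per library for 9 of the 10 genes. For Fst none were recovered because its identifier version differed. Pools of one stage differed by more than sampling noise (chi-square per degree of freedom 15.1 to 51.3). Alternatives were another pseudocount (0.1), median-of-ratios scaling, no filter, a 5 TPM minimum, quantile normalization, no trend, voom, a replicate block, protein-coding genes only, and leaving out each library.

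The genes and lists were chosen with earlier results of these data known. All 10 genes are described, and other genes are named from lists of the pathway and of cell type markers, apart from the 3 genes most similar to each of the 10. Further marker lists were pancreatic acinar genes, of which 3 of 9 tested fell (0 after rescaling, and with a sum of 2720 TPM in E16.5 library A against 258 and 92.3 TPM in B and C), and pancreatic endocrine genes (median log2 fold change 0.20 over 9 tested).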

Additional observations from a re-analysis of the deposited data

How the results depend on the processing

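The 6 calls among the 10 genes became 5 with a mean of at least 5 TPM (Inhbb was then not tested), 4 after median-of-ratios scaling, 5 after quantile normalization and 7 with protein-coding genes only. Leaving out 1 library gave between 2 and 7 calls, with 2 (Tgfb1 and Tgfb3) without E18.5 replicate A. Over all genes, limma called 7000 genes. It called 4282 with no filter on low values (43310 genes tested), 3795 after median-of-ratios scaling and 3796 after quantile normalization, and between 1472 (without E18.5 replicate A) and 5686 when 1 library was left out. Upward calls made up 83.3% in TPM, 38.1% after median-of-ratios scaling and 50.5% after quantile normalization. Tgfbr2 reversed to -0.31 and -0.21 under the 2 scalings. The cause was not tested.

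The difference in the Tgfb1 share lay between -68.4 and -61.3 percentage points when 1 library was left out, and that in the Tgfbr2 share between -9.25 and -6.22. The difference in the Fst share lay between -4.65 and 2.68 and reversed without E18.5 replicate C.

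The labels do not say whether the replicate letters pair the samples. Correlations of deviations between libraries of the same letter were -0.042, 0.081 and 0.14, and those between different letters lay between -0.15 and 0.084. With so few libraries these values cannot decide whether letters shared a preparation. A fit with the replicate block called 7314 genes and the same 6 of the 10. With 3 libraries a stage, no exact permutation test could go below 0.1. Depth limited Inhbb most, with 13 reads in E16.5 library C.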
